A study of Schizosaccharomyces pombe
Saccharomyces cerevisiae with 8 samples.

Results

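Aminoacyl-tRNA synthetases are the enzymes that join each amino acid to its transfer RNA. They were followed here in budding yeast (Saccharomyces cerevisiae) whose Mediator coactivator had been targeted for degradation. The genes were chosen by deposited annotation and not by any measured value. They are the protein-coding genes that hold the GO biological process term tRNA aminoacylation for protein translation and do not hold the term mitochondrial translation. The rule found 25 genes among the 6518 features of the total RNA table, and 13 of these also stood in the newly synthesized RNA table of 2822 features. All 25 and all 13 passed the count minimum used for testing. The tables gave a gene name for 15 of the 25, and the other 10 are called by their systematic identifiers. Of the 25, 1 (YGL105W) is not itself a synthetase: its deposited description is of a protein that binds transfer RNA together with the methionyl- and glutamyl-tRNA synthetases.

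A cell needs a charged transfer RNA for each amino acid before ribosomes can read the matching codons. Yeast makes protein in the cytosol and, for a few subunits of the respiratory chain, inside mitochondria. For many amino acids a second nuclear gene encodes a separate mitochondrial enzyme that is imported into the organelle, while for others 1 gene supplies both compartments. Mediator is a multi-subunit complex that carries signals from transcription factors to RNA polymerase II, and Med14 and Med17 are core subunits that hold its modules together.

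All libraries came from the same MATalpha strain. It made the rice auxin receptor OsTIR1 from a GPD1 promoter construct inserted at his3, and both Mediator subunits carried degron tags, as MED14-3HA-IAA7 (marked with URA3) and MED17-3V5-IAA7 (marked with kanMX6). The auxin-treated and the DMSO groups alike carried the auxotrophic alleles ade2Δ::hisG, his3Δ200, leu2Δ0, lys2Δ0, met15Δ0, trp1Δ63 and ura3Δ0. Mid-log cultures in YPD received 500 µM auxin (3-indole acetic acid), which brings tagged proteins to OsTIR1 for degradation, or its carrier DMSO, for 30 min. They were then given 5 mM 4-thiouracil for 6 min, which marks RNA made in that window, and were mixed with fission yeast cells in a fixed ratio before extraction. The 4 groups were newly synthesized RNA after auxin, newly synthesized RNA after DMSO, total RNA after auxin and total RNA after DMSO. Each held 2 libraries, which the series design calls biological replicates. No strain without the tags or the receptor entered these comparisons, so an effect of auxin itself cannot be told apart from loss of the tagged proteins. The labels do not say whether the labelled RNA came from the same extracts replicate by replicate.

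Counts in total RNA summed to 10862028 and 13970025 in the auxin libraries and to 17491251 and 13004246 in the DMSO libraries. In newly synthesized RNA the listed features summed to 4817883 and 5882137 in auxin and to 13125438 and 15744423 in DMSO, which are sums over part of the features and not depths. That table held only features that the authors' deposited table lists with a log2 fold change of at most -2.20, so a lower value in it after auxin was settled by what it holds. The transcripts of the tagged genes do not show protein loss. RGR1, which encodes Med14, had 1294 and 1564 normalized counts in total RNA in auxin, against 3249 and 3667 in DMSO, a log2 fold change of -1.27 (auxin over DMSO). SRB4, which encodes Med17, had 617 and 742 in auxin, against 2269.6 and 2812 in DMSO, a log2 fold change of -1.90. In newly synthesized RNA SRB4 had 1389.6 and 1828 in auxin, against 8689 and 10173 in DMSO, and RGR1 was not in that table.

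By the authors' scaling, total RNA of 8 mitochondrial enzymes and of 1 second glycyl enzyme was 3.94 to 6.70 times lower after auxin than after DMSO. Total RNA of the other 16 genes, mostly cytosolic enzymes, stood at 63.8% to 97.2% of its DMSO mean. The 25 genes fell into 2 ranges that did not meet. In 9 of them the log2 fold change lay between -2.74 and -1.98, and in the other 16 it lay between -0.65 and -0.04. Those 9 are the 7 genes annotated to the mitochondrial matrix plus YER087W and YPR081C, which hold another mitochondrial term. The 16 hold the 12 genes without a mitochondrial term and YNL247W, which has no cellular component term. The other 3 (GLN4, YGR094W and GUS1) hold another mitochondrial term, as YER087W and YPR081C do, so that annotation stood in both ranges.

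All values that follow are the authors' normalized counts, which are raw counts divided by 1 size factor per library, and each log2 fold change is auxin over DMSO with its standard error (SE). A gene was called lower or higher at a Benjamini-Hochberg adjusted p below 0.05 in edgeR's quasi-likelihood test across all features. Of the 5589 features tested in total RNA, 92.3% were called lower and 0.769% higher, and the median of all was -1.85. Against that background 14 of the 25 synthetase genes were called lower, and the other 11 were not called. Their median was -0.53. All 25 fold changes were negative in edgeR and in DESeq2, so no gene could be called higher in either, with or without adjustment of p (0 genes in each). Both auxin libraries lay below both DMSO libraries for 20 of the 25, beside 94.6% of all features tested. An exact permutation test of 2 against 2 libraries cannot give a p below 0.333.

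**Figure D1:**
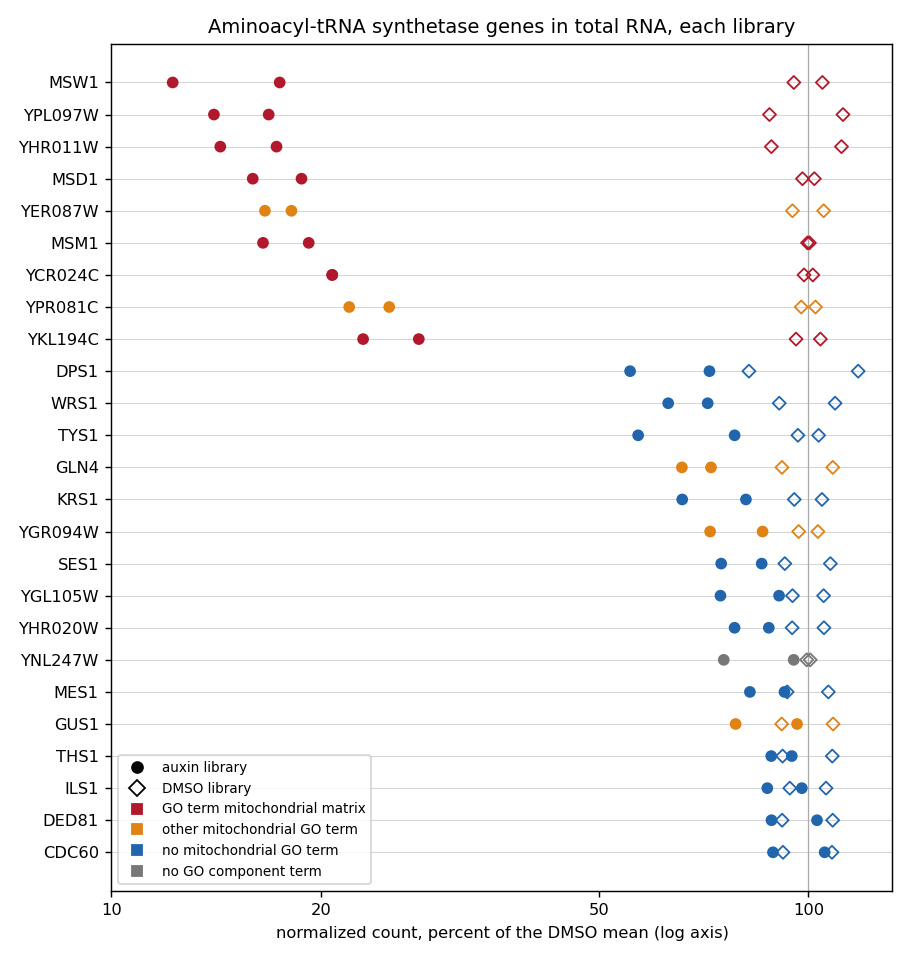
Each row is 1 gene. Filled circles show the 2 auxin libraries and open diamonds the 2 DMSO libraries, as percent of the gene's DMSO mean on a log axis, by the authors' size factors. The auxin points of the 9 genes with the largest falls average 14.8% to 25.3%, and those of the other 16 average 63.8% to 97.2%.

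Among the synthetase genes, the largest falls were in mitochondrial enzymes. MSW1, the mitochondrial tryptophanyl-tRNA synthetase (YDR268W, sacCer3 chromosome IV, 1004004 to 1005143), had 106 and 150.2 normalized counts in auxin, against 821 and 902 in DMSO. Its log2 fold change was -2.74 (SE 0.208, adjusted p = 5.61e-38, edgeR). YPL097W, described as the mitochondrial tyrosyl-tRNA synthetase (chromosome XVI, 364952 to 366430), had 133 and 159 in auxin, against 834 and 1063 in DMSO, a log2 fold change of -2.69 (SE 0.205). In both genes every auxin library was far below every DMSO library.

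YHR011W, described as a probable mitochondrial seryl-tRNA synthetase (chromosome VIII, 127780 to 129120), was the least abundant of the group. It had 20.9 and 25.2 normalized counts in auxin, against 163 and 129 in DMSO, a log2 fold change of -2.66 (SE 0.289). The auxin values rest on 22 and 30 raw counts, and its SE was the widest of the 25. MSD1, the mitochondrial aspartyl-tRNA synthetase (YPL104W, chromosome XVI, 355700 to 357676), had 112 and 132 in auxin, against 689 and 717 in DMSO, a log2 fold change of -2.52 (SE 0.208).

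YER087W is described as a protein similar to tRNA synthetases and found in purified mitochondria (chromosome V, 330576 to 332306). It had 137 and 149 normalized counts in auxin, against 782 and 867 in DMSO, a log2 fold change of -2.52 (SE 0.205). Its span overlaps that of the listed feature YER087C-A, and the sources used here do not give whether the authors' counting used strand, so reads of the 2 cannot be told apart. MSM1, the mitochondrial methionyl-tRNA synthetase (YGR171C, chromosome VII, 840824 to 842551), had 77.9 and 90.6 in auxin, against 471 and 474 in DMSO, a log2 fold change of -2.48 (SE 0.218).

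The smallest falls among the matrix enzymes were in those for asparagine and threonine. YCR024C, the mitochondrial asparaginyl-tRNA synthetase (chromosome III, 160744 to 162222), had 78.9 in each auxin library, against 375 and 386 normalized counts in DMSO, a log2 fold change of -2.27 (SE 0.223). YKL194C, the mitochondrial threonyl-tRNA synthetase, which by its description charges both the usual and an unusual threonine transfer RNA (chromosome XI, 77258 to 78646), had 113 and 136 in auxin, against 473 and 512 in DMSO. Its log2 fold change was -1.98 (SE 0.209, adjusted p = 8.58e-21, edgeR), the smallest fall among the matrix enzymes. Over the 7 matrix enzymes the median was -2.52, and all 7 were called lower.

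Several cytosolic enzymes gave fold changes near 0 on the same scale. CDC60, the leucyl-tRNA synthetase (YPL160W, chromosome XVI, 246990 to 250262), had 21019 and 24933 normalized counts in auxin, against 21726 and 25541 in DMSO. Its log2 fold change was -0.04 (SE 0.202, adjusted p = 0.845, edgeR). DED81, the asparaginyl enzyme (YHR019C, chromosome VIII, 141894 to 143558), had 12813 and 14893 in auxin, against 13271 and 15684 in DMSO, a log2 fold change of -0.06 (SE 0.201). The auxin and DMSO values overlapped in both genes.

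ILS1, the isoleucyl enzyme (YBL076C, chromosome II, 81043 to 84261), had 41575 and 46597 in auxin, against 44783 and 50475 in DMSO, a log2 fold change of -0.11 (SE 0.201). THS1, the threonyl enzyme (YIL078W, chromosome IX, 212499 to 214703), had 38319 and 41015 in auxin, against 39785 and 46884 in DMSO, a log2 fold change of -0.13 (SE 0.201). GUS1, the glutamyl enzyme that joins the methionyl enzyme and the product of YGL105W in 1 complex (YGL245W, chromosome VII, 39023 to 41149), had 14622 and 17912 in auxin, against 17025 and 20176 in DMSO, a log2 fold change of -0.19 (SE 0.202). In these 3 genes too the groups overlapped, and none was called. The listed span of ILS1 overlaps that of YBL077W, with the same limit on strand.

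Of the 16 genes of the upper range, 5 were called lower by small amounts. DPS1, the aspartyl enzyme (YLL018C, chromosome XII, 109902 to 111575), had 2652 and 3447 normalized counts in auxin, against 5634 and 3927 in DMSO, a log2 fold change of -0.65 (SE 0.196, adjusted p = 0.00107, edgeR). Its DMSO libraries differed from each other by more than the lower of them differed from the higher auxin library. WRS1, the tryptophanyl enzyme (YOL097C, chromosome XV, 136527 to 137825), had 4373 and 4983 in auxin, against 6311 and 7590.2 in DMSO, a log2 fold change of -0.57 (SE 0.198, adjusted p = 0.00449, edgeR). TYS1, the tyrosyl enzyme (YGR185C, chromosome VII, 866336 to 867520), had 1691 and 2326 in auxin, against 3069.7 and 2867 in DMSO, a log2 fold change of -0.56 (SE 0.193, adjusted p = 0.00394, edgeR). In these 3 genes the auxin libraries lay below both DMSO libraries.

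GLN4, the glutaminyl enzyme (YOR168W, which overlaps the listed feature YOR169C), had 12625 and 13899.8 in auxin, against 17573 and 20786 in DMSO. Its log2 fold change was -0.53 (SE 0.202, adjusted p = 0.00938, edgeR). KRS1, the lysyl enzyme (YDR037W), had 10696 and 13202 in auxin, against 15488 and 16973 in DMSO, a log2 fold change of -0.44 (SE 0.202, adjusted p = 0.031, edgeR). These 5 calls are not firm: each was lost in at least 1 fit that left out a library, though every log2 fold change stayed negative. A fit with fewer libraries has less power, so a lost call does not show that 1 library made the fall. Without DMSO replicate 1, DPS1 moved to -0.36 (adjusted p = 0.25, edgeR), TYS1 to -0.51 (adjusted p = 0.1) and KRS1 to -0.51 (adjusted p = 0.0874). Without DMSO replicate 2, WRS1 was at -0.43 (adjusted p = 0.175), TYS1 at -0.61 (adjusted p = 0.0521), GLN4 at -0.41 (adjusted p = 0.176) and KRS1 at -0.37 (adjusted p = 0.217), all by edgeR. Without auxin replicate 1, WRS1 was at -0.48 (adjusted p = 0.0525), TYS1 at -0.35 (adjusted p = 0.116), GLN4 at -0.46 (adjusted p = 0.0988) and KRS1 at -0.30 (adjusted p = 0.284), all by edgeR. In such fits the lone library of a group is assumed to vary like the others. The 9 larger falls stayed called in each of these fits.

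The other cytosolic members were not called. SES1, the seryl enzyme (YDR023W), had 20539 and 23479 normalized counts in auxin, against 25344 and 29459.7 in DMSO, a log2 fold change of -0.32 (SE 0.202). YHR020W, the prolyl enzyme, had 14623 and 16373 in auxin, against 17685 and 19646 in DMSO, a log2 fold change of -0.27 (SE 0.202). MES1, the methionyl enzyme (YGR264C), had 13475 and 15104 in auxin, against 15240.4 and 17460.5 in DMSO, a log2 fold change of -0.19 (SE 0.202). In each of the 3 both auxin libraries were below both DMSO libraries, by less than the test could call.

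YGR094W, which supplies the valyl enzyme to both compartments, had 18768 and 22321 in auxin, against 26798 and 25148 in DMSO, a log2 fold change of -0.34 (SE 0.202, adjusted p = 0.0994, edgeR). DESeq2 called YGR094W (adjusted p = 0.0252) and SES1 (adjusted p = 0.0395). YNL247W, the cysteinyl enzyme, had 2579 and 3249 in auxin, against 3392 and 3431 in DMSO, a log2 fold change of -0.23 (SE 0.194). The product of YGR094W serves mitochondria too, yet its transcript did not move as those of the matrix enzymes did.

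The 3 genes of the synthetase complex were also compared within each library. Normalized counts per kb of coding length of MES1 over those of GUS1 were 0.869 and 0.795 in the auxin libraries and 0.844 and 0.816 in the DMSO libraries. YGL105W over GUS1 was 0.773 and 0.766 in auxin, against 0.842 and 0.787 in DMSO. YGL105W itself had 6008 and 7291 normalized counts in auxin, against 7622 and 8447 in DMSO. The MES1 to GUS1 ratios overlapped between the groups, and both YGL105W to GUS1 ratios were lower in auxin.

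By the cellular component terms alone the contrast was blurred. No member held a mitochondrial term without also holding cytoplasm or cytosol. The 12 members with both kinds of term had a median log2 fold change of -2.37 in total RNA (range -2.74 to -0.19, 10 called lower), and the 12 without a mitochondrial term had one of -0.27 (range -0.65 to -0.04, 4 called lower). Of all features tested, 92.3% were called lower. The class with both terms spanned both ranges because GLN4, YGR094W and GUS1 sat with the cytosolic enzymes. The split by the matrix term was chosen after the values were seen. Members are not replicates of a class, so the classes are described and not tested.

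The size of a fall depends on the scaling. Under the trimmed mean of M values (TMM), which sets the bulk of features to no change, the median of all features in total RNA moved to -0.09, and 32.3% of features were called lower and 29.6% higher. On that scale all 16 genes of the upper range were called higher, at log2 values of 1.09 to 1.72. Of the 9 genes of the lower range, 8 were called lower, at -0.99 to -0.33, and YKL194C was not called, at -0.22. TMM moves all genes by nearly the same amount, so it could change the signs but not the gap between the ranges. RGR1 stood at 0.49 and SRB4 at -0.14 on the TMM scale. As raw shares of the library, which use no scaling factor, the 25 genes held 2.30% and 2.32% of total RNA counts in auxin, against 1.79% and 1.79% in DMSO. The 7 matrix enzymes held 0.00621% and 0.00659% in auxin, against 0.0239% and 0.0234% in DMSO.

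A ratio of 2 genes within a library depends on no scaling at all, so the cytosolic and mitochondrial enzymes for the same amino acid were compared in that way. Both enzymes were members for 8 amino acids. The pairs were assigned from the deposited descriptions and, for YER087W and proline, from knowledge of the gene. The cytosolic enzyme was the more abundant one per kb in all 8 pairs, 17.1 to 922 times in auxin (median 110.3) and 3.91 to 181 times in DMSO (median 22.7). Taken from the mean levels of each group, the ratio was 3.62 to 5.09 times higher in auxin. Within single libraries, both auxin ratios lay above both DMSO ratios in 8 of 8 pairs. Each pair sets a gene of the upper range beside one of the lower range. Those ranges do not meet, so the count is a description. Abundant RNAs also fell less across all features. Of 10 level classes, the top one had a median log2 fold change of -0.47, and class 3 from the bottom one of -2.16.

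For asparagine, DED81 over YCR024C was 144 and 168 in the auxin libraries, against 31.4 and 36.1 in the DMSO libraries. For methionine, MES1 over MSM1 was 132 and 128 in auxin, against 24.8 and 28.2 in DMSO. For proline, YHR020W over YER087W was 89.5 and 91.8 in auxin, against 18.9 and 19.0 in DMSO. None of these 3 cytosolic partners was called. For tryptophan, WRS1 over MSW1 was 36.4 and 29.1 in auxin, against 6.75 and 7.38 in DMSO. For aspartate, DPS1 over MSD1 was 27.9 and 30.9 in auxin, against 9.65 and 6.47 in DMSO. For tyrosine, TYS1 over YPL097W was 15.9 and 18.2 in auxin, against 4.59 and 3.37 in DMSO. The cytosolic partners in these 3 pairs are among the genes with small called falls, and the ratio was 3.68 to 4.54 times higher in auxin, beside 4.61 to 4.90 times in the first 3. For threonine, THS1 over YKL194C was 213 and 190.03 in auxin, against 53.0 and 57.6 in DMSO. For serine, SES1 over YHR011W was 948 and 900.3 in auxin, against 150.3 and 220.3 in DMSO. Neither THS1 nor SES1 was called, and their ratios were 3.62 and 5.09 times higher in auxin. Pairs with an uncalled cytosolic partner thus ran from 3.62 to 5.09 times, on both sides of those with a called one. The serine pair was the most uneven in level, and its lower member has the fewest counts of the 25.

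**Figure D2:**
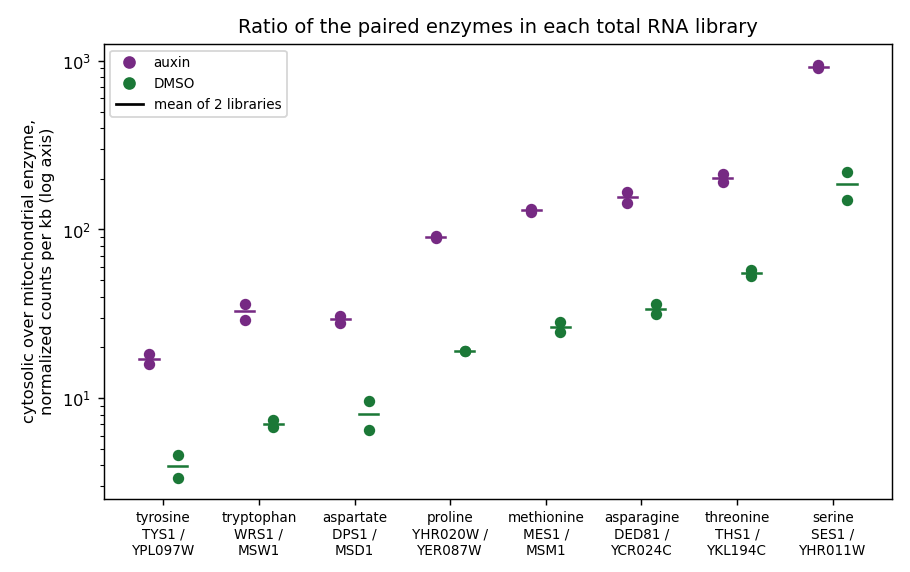
Ratio of the cytosolic to the mitochondrial enzyme for each of 8 amino acids, from normalized counts per kb in each total RNA library (log axis). Points are libraries, auxin left of DMSO, and lines their means. In every pair the 2 auxin points stand above the 2 DMSO points. Taken from the mean levels of each group, and not from the drawn lines, the ratio was 3.62 to 5.09 times higher in auxin.

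Glycine has 2 genes of another kind. YPR081C is described as a glycyl-tRNA synthetase (GRS2) that is not expressed under normal growth and is a paralog of GRS1, the main enzyme of both compartments. YPR081C had 179 and 204 normalized counts in auxin, against 796 and 834 in DMSO, a log2 fold change of -2.09 (SE 0.20, adjusted p = 8.64e-25, edgeR). GRS1, which does not hold the term of the rule, had 22213 and 24535 in auxin, against 23253 and 27757 in DMSO, a log2 fold change of -0.13 (SE 0.202). GRS1 over YPR081C per kb was 115 and 111 in auxin, against 27.1 and 30.8 in DMSO. The change is of the size seen for the compartment pairs, in a gene whose description names no mitochondrial role. Reads that could come from either paralog may have been split by the authors' counting.

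Enzyme genes outside the rule divided in the same way, though they were chosen with the pattern known. Of the 12 taken, 5 hold the aminoacylation term together with the term mitochondrial translation (NAM2, MSR1, ISM1, YNL073W and YDR341C), and the rest lack the exact aminoacylation term. NAM2 (leucine), MSE1 (glutamate), MSF1 (phenylalanine), MSR1 (arginine), ISM1 (isoleucine) and YNL073W (lysine) encode mitochondrial enzymes. All 6 were called lower in total RNA, at -2.64 to -2.08, as were 92.3% of all features, and under TMM ISM1 was not called (-0.36). Of the other 6, the cytosolic phenylalanyl subunit gene FRS2 was called lower, at -0.74 (SE 0.190), and FRS1, ALA1, HTS1, GRS1 and YDR341C were not called. Under TMM all 6 of these were called higher, at 1.00 to 1.64. ALA1, HTS1 and GRS1 supply both compartments, at -0.27, -0.24 and -0.13.

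NAM2 had 175 and 201 normalized counts in auxin, against 1138 and 1206 in DMSO. MSE1 had 124 and 127 in auxin, against 699.5 and 779 in DMSO. ISM1 had 105 and 145 in auxin, against 579.7 and 493 in DMSO. These 3 are the mitochondrial partners of CDC60, GUS1 and ILS1, and their groups did not overlap. Over all 15 pairs that include such genes, the ratio of cytosolic to mitochondrial enzyme was 2.99 to 6.07 times higher in auxin, and the auxin libraries were above the DMSO libraries in 15 of 15. In all 15 the cytosolic enzyme was the more abundant one, and abundant RNAs fell less across all features, so this count too is a description.

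The 2 ranges also differed in level. Per kb of coding length, THS1 (17989 ± 865 normalized counts, SD, n = 2 libraries) and SES1 (15845 ± 1497) had the 2 highest levels in auxin. There the lowest of the 16 upper genes, YNL247W, had 1265 ± 206 per kb, and the highest of the 9 lower genes, MSW1, had 112 ± 27.7. In DMSO SES1 (19728 ± 2095), THS1 (19653 ± 2277) and ILS1 (14796 ± 1250.3) led, and the first pair did not differ beyond their spread. KRS1, YHR020W, GUS1, DED81, GLN4, YGR094W, MES1, CDC60 and YGL105W followed at 9139 to 7104 in DMSO, each within the spread of its neighbours. WRS1 stood at 5351 ± 696, DPS1 at 2856 ± 721, TYS1 at 2505 ± 121 and YNL247W at 1481 ± 12.1, with DPS1 and TYS1 within their spread. Then came MSW1 at 756 ± 50.4, YPL097W at 641 ± 109.6 and YER087W at 476 ± 34.7. YPR081C, MSD1, YKL194C, MSM1 and YCR024C lay between 439 and 257, and YHR011W at 109 ± 17.7. The distance between YNL247W and MSW1, the genes on either side of the gap, was thus wider in auxin.

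Across all features the more abundant RNAs had the smaller falls, so each gene was set beside features of like level. Features were cut into 10 classes of equal size by level per kb over the 4 total RNA libraries. In the top class the median log2 fold change of all features was -0.47, and the 13 synthetase genes in it ran from -0.57 (WRS1) to -0.04 (CDC60). Only THS1, ILS1, DED81 and CDC60 lay above its upper quartile of -0.15, and none lay below its lower quartile of -1.06. In the class below it the median was -1.29 with an upper quartile of -0.84, and DPS1, TYS1 and YNL247W lay above that quartile at -0.65, -0.56 and -0.23. In the classes that hold the lower range the medians were -2.16 to -1.93, beside -2.74 to -1.98 for the 9 genes. MSW1 (-2.74, class median -1.93), YPL097W (-2.69, class median -2.05) and YHR011W (-2.66, class median -2.04) lay furthest below their classes. YKL194C and YPR081C, at -1.98 and -2.09, lay at or above theirs (-2.09). MSW1, YPL097W, YHR011W, MSD1 and YER087W lay below the lower quartile of their class. MSM1, YCR024C, YKL194C and YPR081C lay within the quartiles of theirs. Level and fold share the same 4 libraries, so this is a description.

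**Figure D3:**
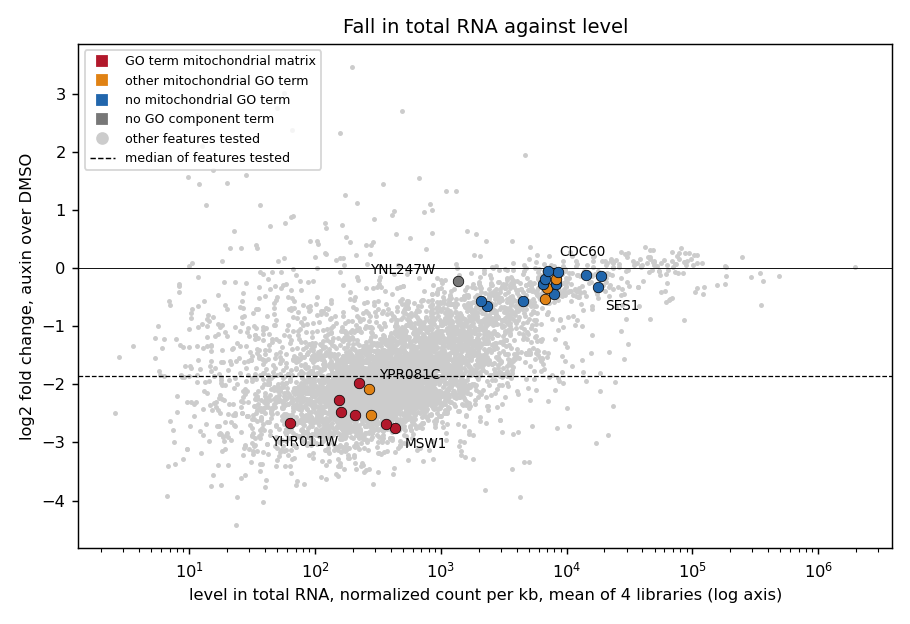
Log2 fold change in total RNA, auxin over DMSO, against mean level in normalized counts per kb (log axis). Grey points are all features tested, coloured points the 25 synthetase genes by annotation, and the dashed line is the median of all features, -1.85. The 16 upper genes sit at the abundant end and the 9 lower genes in the middle and lower part of the level range.

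In the newly synthesized RNA table the authors list every feature at -2.20 or lower on the log2 scale. All but 1, which has no readable p-value, are listed with a very low p-value. Which of the 2 decided entry is not given, so a gene's absence does not show a smaller fall. No feature with a smaller fall stands there, so the upper end of the range of the 13 genes is limited by what the table holds. Its lower end is not limited in that way, as the features there ran from -4.74 to -2.21 in edgeR. By the authors' scaling all 13 genes in the table were lower after auxin and were called, as were 100% of the 2822 features (0% higher), so the count says nothing of these genes. Their log2 fold changes lay between -2.98 and -2.35 with a median of -2.65, beside -2.80 for all features of the table. The 5 matrix enzymes had a median of -2.84 and the 5 genes without a mitochondrial term one of -2.49. The other 12 members were not in that table and were not analysed in this fraction.

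Among the mitochondrial enzymes YER087W had 325 and 432 normalized counts in newly synthesized RNA after auxin, against 2796 and 3188 after DMSO, a log2 fold change of -2.98 (SE 0.248). MSD1 had 456 and 621 in auxin, against 3905 and 4172 in DMSO, a log2 fold change of -2.91 (SE 0.257). MSM1 had 384 and 465 in auxin, against 2768 and 3363 in DMSO, a log2 fold change of -2.85 (SE 0.247). These 3 had the largest falls of the 13. YPL097W had 494 and 634 in auxin, against 3712 and 4353 in DMSO, a log2 fold change of -2.84 (SE 0.256). MSW1 had 294 and 375 in auxin, against 2279 and 2368 in DMSO, a log2 fold change of -2.80 (SE 0.237). YCR024C had 428 and 529 in auxin, against 2852 and 3181 in DMSO, a log2 fold change of -2.65 (SE 0.245). No library of one treatment reached the range of the other in any of the 6.

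Among the cytosolic enzymes YHR020W had 4011 and 4982 in auxin, against 22296 and 23669.7 in DMSO, a log2 fold change of -2.35 (SE 0.247), the smallest of the 13. DED81, whose gene lies 437 bases from YHR020W, had 2759.7 and 3213 in auxin, against 15591 and 17655 in DMSO, a log2 fold change of -2.48 (SE 0.254). MES1 had 4867 and 6475 in auxin, against 30507 and 33304 in DMSO, a log2 fold change of -2.49 (SE 0.242). These 3 genes kept 17.8% to 19.6% of their DMSO mean here, and none was called in total RNA. WRS1 had 1615 and 2032 in auxin, against 10315 and 11811 in DMSO, a log2 fold change of -2.60 (SE 0.261). KRS1 had 4583 and 5945 in auxin, against 32029.9 and 33951 in DMSO, a log2 fold change of -2.65 (SE 0.243), the same to 2 decimals as that of YCR024C.

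YNL247W had 1517 and 2041 in auxin, against 9366 and 10547 in DMSO, a log2 fold change of -2.48 (SE 0.260). YGR094W had 4443 and 6403 in auxin, against 32959 and 36742 in DMSO, a log2 fold change of -2.68 (SE 0.242). Both lay inside the range of the other 11. With TMM scaling, which centres this selected table, the median of the genes without a mitochondrial term was 0.29 and 5 members were called higher (21.2% of features were) and 1 lower, YER087W at -0.20 (25% of features were).

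For 4 amino acids both enzymes were members and stood in this table. A cytosolic enzyme with a smaller fall would be missing from it, so small differences within these pairs are in part fixed by the selection, and no conclusion is drawn from setting them beside the unselected pairs of total RNA. The cytosolic minus the mitochondrial log2 fold change was 0.18 to 0.63 in newly synthesized RNA (median 0.28), beside 1.85 to 2.34 for the 8 pairs in total RNA (median 2.19). With the pairs that include genes outside the rule, it was 0.0077 to 0.63 over 7 pairs in newly synthesized RNA (median 0.18). Over the 15 such pairs in total RNA it was 1.57 to 2.60 (median 2.13). For asparagine the difference was 0.18 in newly synthesized RNA and 2.20 in total RNA, for methionine 0.36 and 2.29, and for proline 0.63 and 2.25.

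**Figure D4:**
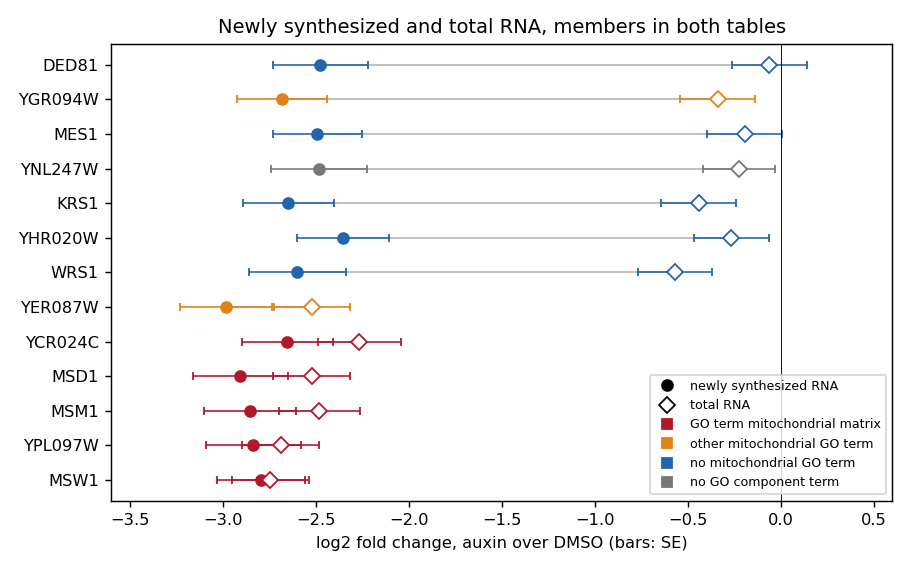
Log2 fold changes, auxin over DMSO, of the 13 genes in both tables, with bars of 1 SE. Filled circles show newly synthesized RNA and open diamonds total RNA. The circles lie between -2.98 and -2.35 for every gene, while the diamonds of the 6 mitochondrial enzymes lie near their circles and those of the other 7 lie between -0.57 and -0.06.

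The difference between the fractions was tested as the interaction of fraction and treatment over all 8 libraries. The fit took the 8 libraries as independent, though the labels do not say whether the fractions came from the same extracts. Every gene in both tables is listed with a large fall in newly synthesized RNA. A gene with a total RNA value near 0 thus had to show a large difference, so the values below are a description. It was called for 7 of the 13 genes, with the larger fall in newly synthesized RNA, beside 54.6% (and 0% in the other direction) of the 2821 features in both tables, so the count itself is near the background. The 7 are DED81 at -2.41 (newly synthesized minus total log2 fold change, SE 0.279, adjusted p = 1.22e-16, edgeR), YGR094W, MES1, YNL247W, KRS1, YHR020W and WRS1 at -2.03 (SE 0.283). The 6 mitochondrial enzymes were not called with all libraries, from -0.46 for YER087W (SE 0.294, adjusted p = 0.167, edgeR) to -0.05 for MSW1 (SE 0.294). Without newly synthesized auxin replicate 2, YER087W was called, at -0.68 (adjusted p = 0.0344, edgeR). Over all features the median difference was -0.72. Under TMM the 7 stayed called, at -1.57 to -1.19 (28.2% of features were called that way), and the 6 were called in the other direction, at 0.38 to 0.79 (26.6% of features). The sign for the mitochondrial enzymes thus depends on the scaling.

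The level of newly synthesized relative to total RNA in DMSO was also compared for the 13 genes in both tables. The tables were normalized separately, so only the order of the ratios is used. The median ratio of the 2821 features in both tables was 3.85 and 3.95 in the 2 DMSO replicates. YCR024C stood at 7.61 and 8.24, MSM1 at 5.88 and 7.10, MSD1 at 5.66 and 5.82 and YPL097W at 4.45 and 4.09, above the median. YER087W stood at 3.58 and 3.68 and MSW1 at 2.78 and 2.62. The cytosolic enzymes lay below the median, from KRS1 at 2.07 and 2.00 and MES1 at 2.00 and 1.91, through WRS1 at 1.63 and 1.56 and YHR020W at 1.26 and 1.20, to DED81 at 1.17 and 1.13. YGR094W stood at 1.23 and 1.46 and YNL247W at 2.76 and 3.07. MSW1 and YNL247W overlapped between the classes, yet their total RNA log2 fold changes were -2.74 and -0.23. The ratios share the total RNA DMSO libraries with those fold changes, so the likeness is a description. Genes entered the newly synthesized RNA table by values that rest in part on its DMSO libraries. These genes and the median are thus of a selected set, and no conclusion is drawn from the order.

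**Figure D5:**
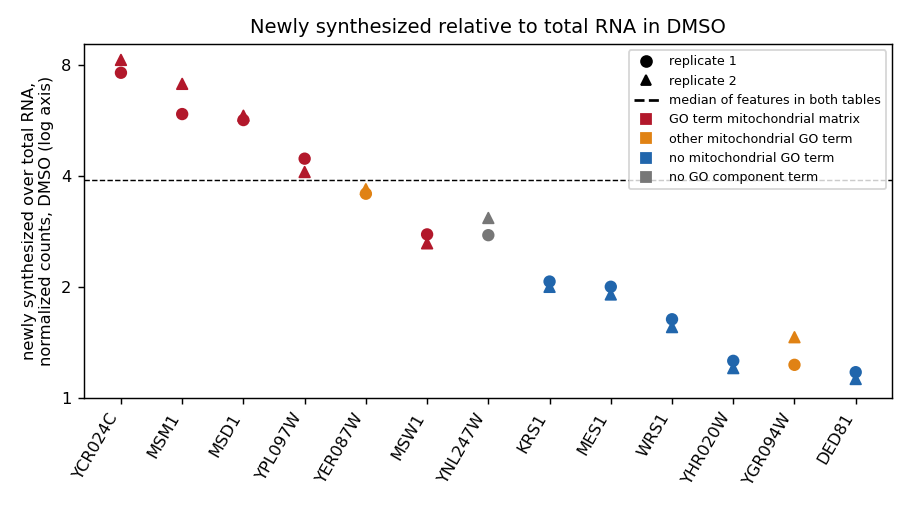
Normalized counts in newly synthesized over total RNA in DMSO (log axis), for 13 genes, with each replicate number as a point. The dashed line is the median over 2821 features (3.85 and 3.95). The cytosolic enzymes lie below the line, and 4 of the 6 mitochondrial enzymes lie above it.

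Other genes of the transfer RNA pathway were taken from 4 lists matched by name, and unnamed genes could not be counted. Genes that modify transfer RNA bases had 17 of 41 listed names in the total RNA table. Of these 16 were called lower and 1 was not, with a median log2 fold change of -1.72, and under TMM 4 were lower and 4 higher. The share of all features called lower was 92.3%, so this count is near the background. Under TMM 32.3% of all features were lower and 29.6% higher. RIT1, which modifies the initiator transfer RNA, was the lowest at -2.85, and IKI3, an Elongator subunit, the highest at -0.12. Genes for transfer RNA processing and export had 9 of 16 names matched, all 9 called lower (5 lower and 3 higher under TMM), with a median of -2.07, from SEN54, a subunit of the splicing endonuclease, at -2.61 to LHP1, which binds precursor ends, at -0.81. The median of all features was -1.85, and this count too is near the 92.3% of all features called lower.

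Delivery of charged transfer RNA and sensing of uncharged transfer RNA had 6 of 8 names matched. Of these 3 were called lower, beside 92.3% of all features, with a median of -0.49. Under TMM 0 were lower and 5 higher, beside 32.3% and 29.6% of all features. TUF1, the mitochondrial elongation factor that brings charged transfer RNA to the organelle's ribosome, was at -1.61, and TEF2, which encodes its cytosolic counterpart, was at -0.05, with reads that the authors' counting may have split with its near-identical copy TEF1. Of the 4 charging partners only HER2, a subunit of the mitochondrial enzyme that makes glutaminyl-tRNA, was matched, and it was called lower at -1.98. In newly synthesized RNA every matched gene in the table was called lower, as all its features were: HER2 at -2.81, 3 delivery and sensing genes at a median of -2.56, 7 modification genes at -2.63 and 5 processing and export genes at -2.72.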

How the data were processed

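Total RNA and 4-thiouracil-labelled RNA of 8 libraries were taken from 1 deposited table per fraction. The authors deposited raw counts per feature as whole numbers, and, per the file headers, a normalized signal and the same signal divided by transcript length in kb. The values show the normalized signal to be the count divided by 1 size factor per library (total RNA: 1.05 and 1.19 in auxin, 1.09 and 0.728 in DMSO; newly synthesized RNA: 1.59 and 1.56 in auxin, 0.613 and 0.657 in DMSO). Not given in the sources used here were the origin of the factors, the aligner, the counter and its use of strand. The authors' log2 fold changes and p-values, deposited beside the counts, served only to describe which features the newly synthesized RNA table holds: no p-value in it was above 1.64e-31. For 1 feature there no p-value could be read. Libraries were stranded and depleted of ribosomal RNA, per the labels' protocols. The submitters' processing notes name the sacCer3 build and bcl2fastq 2.17.1.14.

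Each fraction was tested with edgeR 4.0.16 (quasi-likelihood F test, R 4.3.3) on features whose mean count reached 10, taking the deposited size factors as offsets and Benjamini-Hochberg adjustment over all features. A fit over the 8 libraries tested the interaction of fraction with treatment. The SE is the size of the log2 fold change over the square root of F. Alternatives were TMM, DESeq2 1.42.0, no filter on low counts, a replicate block, other class schemes and leaving out each library. The fits were tested on simulated data first. Precision is limited by 2 libraries per group and, for low genes, by counting error.

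Members come from the GO terms in the deposited table, and names from the table alone, which names 33.8% of total RNA features. In each fraction values per library are given for the 5 largest and 5 smallest falls, their partners for the same amino acid and the glycyl paralogs, with further members added so that nearly all are shown. The members, lists and tests were chosen with earlier results of these data known.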

Additional observations from a re-analysis of the deposited data

Results flagged for a closer look

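For 7 of the 13 synthetase genes in both tables, the effect of auxin differed between newly synthesized and total RNA by the test of the interaction (edgeR, adjusted over 2821 features). The newly synthesized minus total log2 fold change was -2.41 for DED81, -2.35 for YGR094W, -2.30 for MES1, -2.26 for YNL247W, -2.21 for KRS1, -2.09 for YHR020W and -2.03 for WRS1. Both replicates of each fraction moved the same way in these genes, apart from DED81 in total RNA, whose groups overlapped. The difference was called lower for 54.6% of features, so being called does not set these 7 apart. Their values lie below the median difference of all features, -0.72. Every gene in both tables is listed by the authors at a log2 fold change of -2.20 or lower in newly synthesized RNA. Values near or below -2 therefore follow for genes whose total RNA fold change is near 0.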

How the results depend on the processing

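TMM scaling moved the most. In total RNA it called 1805 features lower and 1652 higher, and 8 members lower and 16 higher. In newly synthesized RNA it called 705 features lower and 597 higher, and 1 member lower and 5 higher. For the difference between fractions it called 795 features lower and 749 higher, with 6 members higher. The class medians became 1.49 (no mitochondrial term) and -0.62 (mitochondrial term) in total RNA, and 0.29 and -0.049 in newly synthesized RNA. Signs turned under TMM in total RNA for DPS1 (1.09), WRS1 (1.20), TYS1 (1.18), GLN4 (1.24), KRS1 (1.32), YGR094W (1.42), SES1 (1.45), YGL105W (1.49), YHR020W (1.50), YNL247W (1.53), MES1 (1.57), GUS1 (1.57), THS1 (1.64), ILS1 (1.66), DED81 (1.70) and CDC60 (1.72). They turned in newly synthesized RNA for YCR024C (0.13), WRS1 (0.19), KRS1 (0.13), YGR094W (0.093), YHR020W (0.43), YNL247W (0.30), MES1 (0.29) and DED81 (0.32), and in the difference for MSW1 (0.79), YPL097W (0.69), MSD1 (0.46), YER087W (0.38), MSM1 (0.48) and YCR024C (0.46). TMM centres the features by construction; the cause beyond that was not tested.

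Leaving out 1 library gave 10 to 14 members lower in total RNA and 13 in newly synthesized RNA. It gave 4896 to 5197 features lower in total RNA and 1126 to 2003 in the difference. The median of genes without a mitochondrial term ran from -2.71 to -2.37 in newly synthesized RNA, -2.71 without auxin replicate 2. DED81 ran from -0.18 to 0.062 and CDC60 from -0.17 to 0.081 in total RNA, and in the difference MSW1 ran from -0.28 to 0.23 and YPL097W from -0.34 to 0.022.

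With the replicate number as a block, 5 more members were called lower in total RNA (YGR094W, SES1, YGL105W, YHR020W and GUS1, adjusted p = 0.00848 to 0.0499, edgeR) and YER087W in the difference (-0.46, adjusted p = 0.025). Deviations of same-numbered libraries correlated at -0.205 (total RNA, auxin with DMSO) to 0.163, so the numbers were not taken as pairs. With crossed numbers in total RNA, an alternative chosen after seeing the data, 9 members were lower. DESeq2 and the absence of a filter on low counts lost no member's call.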
